A study of Mus musculus with 10 samples.

Results

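Molecular chaperones and their helpers were examined in the gastrocnemius (GAS), the main calf muscle, of mice with diet-induced obesity (DIO). The set holds the 89 genes, of 21098 in the count table, whose symbols name a heat shock protein of the Hspa, Hspb, Hspd, Hspe, Hsph or Hsp90 families, a J-domain protein (Dnaja, Dnajb or Dnajc), a subunit Cct2 to Cct8 of the cytosolic chaperonin, or one of Bag1 to Bag6. The choice used symbols only and no measured value. All animals were male wild-type C57BL/6J mice (C57BL/6JBomTac in the study's methods) that were put on a high-fat diet at 9 weeks of age, and after 9 weeks of it received weekly subcutaneous injections for 14 weeks. The series gives their age as 30 weeks, which is less than these times add up to. The 5 ASO mice were given 10 mg/kg of RES-010, an unconjugated antisense oligonucleotide with locked nucleic acid (LNA) bases that binds miR-22, and the 5 control mice (CTRL) received saline. The controls therefore carry no oligonucleotide at all, and an effect of any LNA oligonucleotide cannot be told apart from an effect of blocking miR-22. Poly(A) RNA of whole muscle was sequenced in 1 library per labelled sample. The labels do not say in so many words that each library is another mouse, so p-values measure the spread between these libraries.

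Chaperones bind unfolded protein and keep it from clumping until it folds or is broken down. Hsp70 proteins work in cycles driven by ATP, in which J-domain proteins deliver the substrate and start ATP hydrolysis, and BAG proteins release the nucleotide, while Hsp90 finishes the folding of kinases and steroid receptors and the ring-shaped CCT chaperonin folds actin and tubulin. Skeletal muscle is rich in small heat shock proteins, which hold on to damaged cytoskeletal proteins at the Z-disc, and together with BAG3 they feed chaperone-assisted autophagy.

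What was counted sets what can be said of these genes. The authors counted read pairs on segments of at most 500 bp, each the end of the 3′UTR of an annotated transcript, and all segments of 1 gene were added up here and are given as CPM, that is, relative to the library size after TMM scaling. Library totals were 1606909 to 2116720 counts in CTRL and 2239186 to 2632560 with the ASO, and the 89 genes held 1.54% to 2.51% of them. A total of 11 of the 89 had 0 counts in every library, namely Bag1, Bag6, Cct6b, Dnajb1, Dnajc22, Dnajc24, Dnajc5b, Dnajc6, Hspa8, Hspb2 and Hspb9. Their segments, apart from the 242 bp of Dnajc22, have at most 16 bases that no other segment covers, so a 0 says nothing about the level of Hspa8, the constitutive Hsp70, or of Dnajb1, its main J-domain partner. A further 12 were under the filter on low counts, which left 66 tested genes. The most distal segment of a gene was covered more deeply relative to its upstream segments with the ASO. The median log2 ratio over 1261 genes was 1.18 to 1.77 in the ASO libraries and −0.59 to 0.43 in the CTRL libraries, without overlap, and this difference in coverage and the treatment cannot be told apart. Of 9 skeletal muscle markers, Mylpf, Tnnt3 and Mb were at 0, each with at most 10 bases of its own, and the sum of the others was 84652 to 130024 CPM with the ASO and 40606 to 79770 CPM in CTRL, again without overlap. Sums of markers of other cells overlapped between the groups. They were 17.9 to 117 CPM with the ASO and 55.5 to 342 CPM in CTRL for 5 macrophage genes (Adgre1 and Cd163 at 0), 38.2 to 256 and 190 to 340 CPM for 5 fibroblast genes (Dcn at 0), and 44.3 to 1267 and 8.96 to 4974 CPM for 5 adipocyte genes. Single markers that fell were the fibroblast gene Lum, from 133, 139, 208, 149 and 173 CPM in CTRL to 43.9, 39.9, 58.4, 81 and 19.8 CPM with the ASO without overlap (log2 fold change −1.72 ± 0.29, edgeR adjusted p = 0.0014), and the macrophage gene Mrc1 (−1.51 ± 0.49, edgeR adjusted p = 0.036), whose groups overlapped. The other tested fibroblast and macrophage markers did not pass. They were Col1a1 (0.36), Col3a1 (−1.18), Cd68 (0.26) and Csf1r (−1.16), with edgeR adjusted p of 0.55, 0.099, 0.79 and 0.1. Of the muscle markers, Ckm (0.93) and Actn3 (1.79) rose (edgeR adjusted p = 0.011 and 0.0015), and Acta1 (0.57) and Pvalb (0.46) did not pass. In bulk RNA, fewer cells of a type and less RNA per cell cannot be told apart, and the part of these marker levels in the results that follow was not tested.

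Some sequences matter for reading the results. The first is miR-22-3p, the microRNA that the ASO binds, shown with its seed (bases 2 to 8) in capitals, as RefSeq gives it on GRCm38.p6.
miR-22-3p: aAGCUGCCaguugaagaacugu
A match to the seed, GGCAGCT in the DNA of the sense strand, was found in the canonical 3′UTR of 13 of the 65 tested genes that have one. The sites below, with the match in capitals and coordinates on GRCm39, are those of the 4 genes with a match whose summed level passed the test, as described further on.
Dnajb5, chr4:42958350-42958379, plus strand: tggggtcaggtGGCAGCTgttccccaccaa
Dnajc3, chr14:119216430-119216459, plus strand: cagtgcgctgaGGCAGCTgtctctgttgtt
Dnaja3, chr16:4525057-4525086, plus strand: tcacctcagatGGCAGCTtgcctggcagtg
Dnajc5, chr2:181192233-181192262, plus strand: tcaatgcctctGGCAGCTggagtgttgggt
The second kind of sequence is the heat shock element, the binding site of HSF1, the transcription factor that switches on chaperone genes under stress. It was searched for as GAANNTTCNNGAA or TTCNNGAANNTTC, which covers both strands, in RefSeq promoters (GRCm38.p6) from 250 bases before to 50 after the start of transcription. Of 72 genes of the set with a promoter in that table, 4 held one (5.56%), against 179 of 27025 promoters of all genes (0.662%). A shorter form with 2 of the repeated units, GAANNTTC or TTCNNGAA, was held by 21 of the 72 (29.2%) and by 17% of all genes. A promoter without the full element can thus hold the shorter one. Below are the 4 genes with the full element, with the repeated units in capitals. Hspd1 and Hspe1, which encode the barrel and the lid of the mitochondrial chaperonin, lie head to head, and their lines show the same element from either strand. Hspd1 and Hspe1 each hold a further match that overlaps the one shown.
Hspd1, chr1:55088050-55088079, minus strand: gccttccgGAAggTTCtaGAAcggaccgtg
Hspe1, chr1:55088051-55088080, plus strand: acggtccgTTCtaGAAccTTCcggaaggcc
Hsph1, chr5:149636279-149636308, minus strand: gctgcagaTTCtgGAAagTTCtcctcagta
Dnajb6, chr5:29735844-29735873, plus strand: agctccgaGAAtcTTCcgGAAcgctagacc

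Of the 66 tested genes, 8 were higher and 10 lower with the ASO in edgeR's quasi-likelihood test at a Benjamini-Hochberg adjusted p under 0.05 over all genes. These are 12.1% and 15.2% of the 66, and among all 7813 genes tested 11.8% were higher and 17.4% lower, so chaperones changed about as often as other genes did. Either direction together came to 27.3% of the set and 29.2% of all genes. In 12 of the 66 the levels of the groups did not overlap (18.2%, against 21.4% of all genes), with 4 of them above CTRL and 8 below it (7.97% and 13.4% of all genes). The median log2 fold change was 0.19 in the set and −0.03 over all genes, and 63.6% of the set lay above 0 against 48.3% of all genes. The genes that rose were Cct5, Cct7, Cct8, Hspd1, Hspb8, Dnajb5, Dnajc2 and Dnajc19, and those that fell were Cct2, Cct4, Hspa5, Hspa13, Dnaja3, Dnajb4, Dnajc3, Dnajc5, Dnajc14 and Bag2. The split depended on scaling. With total counts alone, which moved the median of all genes to −0.21, 5 genes were higher and 16 lower, and with upper quartile scaling 15 were higher and 9 lower. The calls of Hspd1 (0.33), Dnajb5 (0.31) and Dnajc19 (0.27) were lost with total counts. Those of Cct5 (0.42), Hspb8 (0.51) and Hspd1 (0.22) were lost in a fit to distal segments alone, whose scaling is set by those segments. In that fit Cct8 (−0.19), Cct2 (0.06), Cct4 (0.41) and Dnajc5 (0.25) also lost their calls and changed direction. Of the genes that rose, Cct7 kept its call there, and Dnajb5, Dnajc2 and Dnajc19 were not tested in it. Without any single one of ASO 3, ASO 5, CTRL 2, CTRL 3 and CTRL 4, 5 genes were higher in place of 8. A total of 12 of the 18 calls held in all 10 fits that left out 1 library, and the other 6 are named with their genes.

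**Figure D1:**
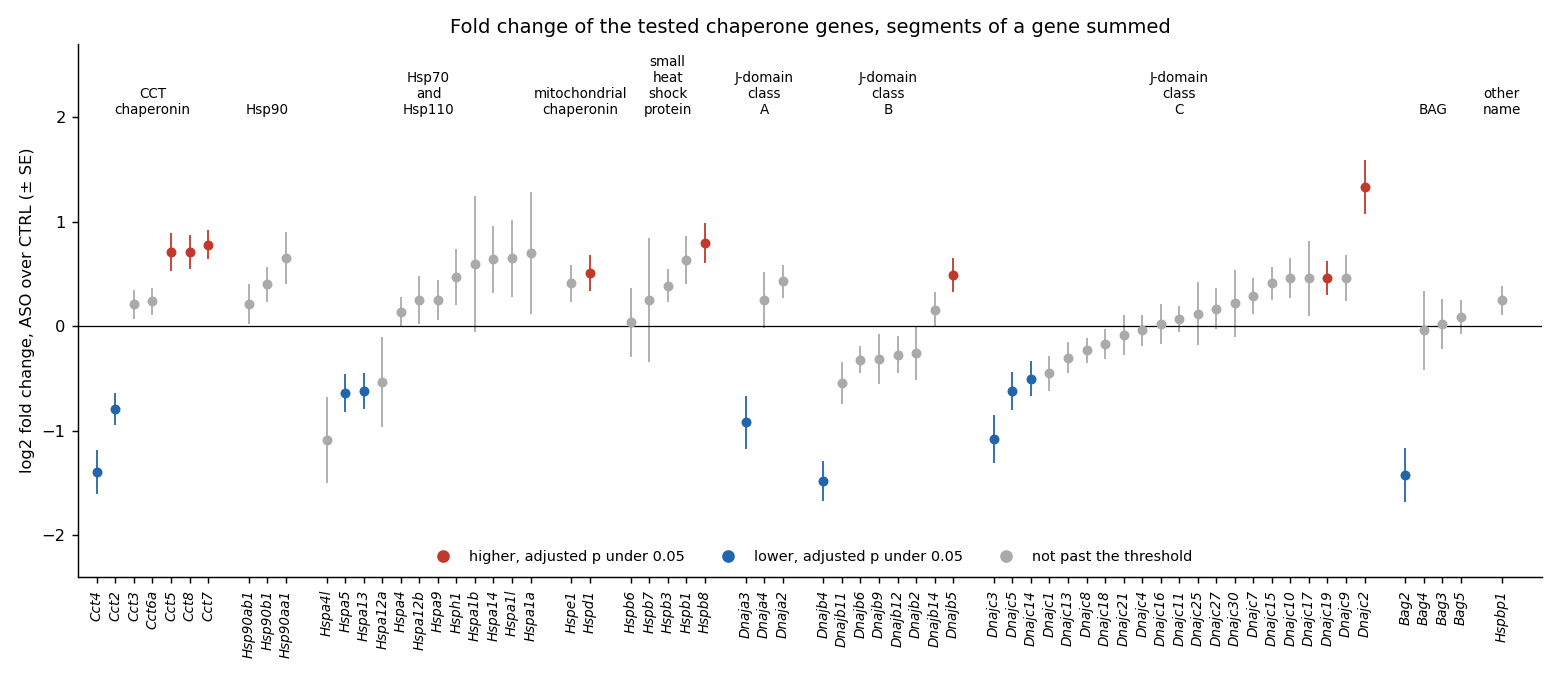
Log2 fold change (ASO over CTRL) with its SE for the 66 tested chaperone genes, from the edgeR fit to segments summed per gene, grouped by family and sorted within it. Red points are the 8 genes that were higher and blue points the 10 that were lower at an adjusted p under 0.05, and both colours occur within the CCT subunits and within J-domain classes B and C, while none of the 3 Hsp90 genes is coloured.

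The subunits of the CCT chaperonin, which together form a double ring, went in opposite directions. Of 7 tested subunits covered by the symbols, 3 rose (Cct5, Cct7 and Cct8), 2 fell (Cct2 and Cct4), and Cct3 and Cct6a did not pass the test. Cct7 stood at 205, 210, 177, 182 and 204 CPM in CTRL 1 to 5 and at 289, 319, 406, 288 and 384 CPM in ASO 1 to 5, a log2 fold change of 0.78 ± 0.14 (SE, n = 5 per group, edgeR adjusted p = 0.0017). For Cct8 the levels were 237, 214, 192, 194 and 190 CPM in CTRL and 280, 276, 463, 328 and 339 CPM with the ASO (0.71 ± 0.16, edgeR adjusted p = 0.006). Every ASO library lay above every CTRL library for both subunits. Cct5 had 69.3, 81.6, 58.8, 57.8 and 68.5 CPM in CTRL and 99.9, 92.6, 138, 79.3 and 141 CPM with the ASO (0.71 ± 0.18, edgeR adjusted p = 0.012), and ASO 4 alone fell inside the CTRL range. Cct4 was at 92.9, 71.8, 88, 123 and 130 CPM in CTRL and at 42.5, 50.6, 25.4, 33.8 and 41 CPM with the ASO (−1.39 ± 0.21, edgeR adjusted p = 0.00076). Cct2 had 82.1, 77.4, 85, 100 and 108 CPM in CTRL and 57.9, 63.3, 44.4, 47.2 and 48.1 CPM with the ASO (−0.79 ± 0.15, edgeR adjusted p = 0.0024). For these 2 subunits every ASO library lay below every CTRL library. Cct6a, the subunit with the most counts, averaged 344 ± 37.8 CPM (SD, n = 5) in CTRL and 405 ± 32.8 CPM with the ASO (log2 fold change 0.24, 95% interval −0.01 to 0.48, edgeR adjusted p = 0.18). Cct3 averaged 71.8 ± 11.6 and 82.8 ± 5.84 CPM (0.21, 95% interval −0.06 to 0.47, edgeR adjusted p = 0.28). The remaining subunit, Tcp1 (CCT1), is not among the 89 symbols, and it was at 112, 136, 112, 114 and 93.2 CPM in CTRL and 139, 142, 181, 149 and 182 CPM with the ASO (0.48 ± 0.14, edgeR adjusted p = 0.021). Its call was lost without ASO 5 (0.44) or without CTRL 5 (0.42), with total counts (0.30) and with replicate numbers as a block (0.48). The fit to distal segments alone gave Tcp1 0.16 (edgeR adjusted p = 0.59), and its most distal tested segment 0.49 (edgeR adjusted p = 0.058). Of the variant subunits, Cct6b had 0 counts and Cct8l1 a total of 3.

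**Figure D2:**
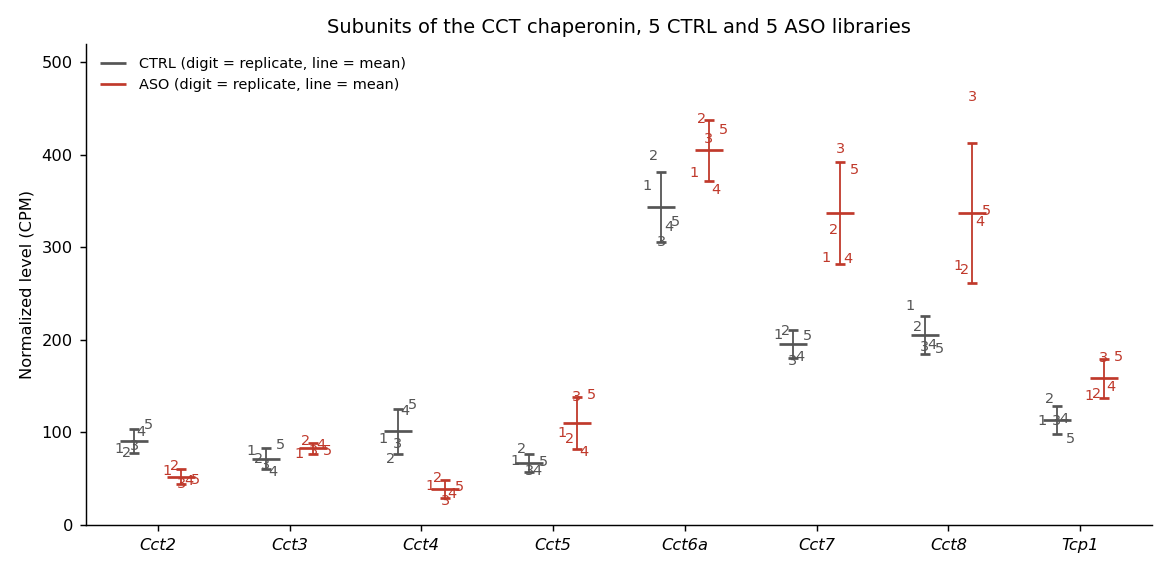
Normalized level (CPM, linear axis from 0) of 7 CCT subunits and Tcp1 in each library, with digits for the replicate, a line for the group mean and bars for the SD over 5 libraries (grey CTRL, red ASO). The red digits lie wholly above the grey ones for Cct7, Cct8 and Tcp1 and wholly below them for Cct2 and Cct4.

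The 2 subunits that fell were counted mostly far from the end of the gene. For Cct4 the distal segment (chr11:22953281-22953780 on GRCm39, in the 3′UTR) held 13.2% of the counts, and its level was 8.96, 6.06, 5.44, 8.26 and 4.49 CPM in CTRL and 8.21, 12.7, 10.6, 7.1 and 15.1 CPM with the ASO. That segment taken alone had a log2 fold change of 0.73 ± 0.29 (edgeR adjusted p = 0.06). The segment 9391 bp upstream of it, chr11:22943890-22944389 in an intron of the canonical transcript, went from a mean of 56.7 ± 14.8 to 13.7 ± 6.21 CPM (SD, n = 5), a log2 fold change of −2.01 ± 0.30 (edgeR adjusted p = 0.00025). Cct2 was alike, with 0.39 ± 0.18 (edgeR adjusted p = 0.11) on its 3′UTR segment and −1.51 ± 0.28 (edgeR adjusted p = 0.001) on a coding segment of 36 bp that lies 9808 bp upstream and held 62.6% of the counts. Thus the direction for both Cct2 and Cct4 turned when only the distal segment was read. Cct7 was higher on its distal segment (1.18 ± 0.22, edgeR adjusted p = 0.0012) and on the one 193 bp upstream of it (0.77 ± 0.14, edgeR adjusted p = 0.0011), and Cct5 has 1 segment only, in the 3′UTR. For Cct8 the rise came from the upstream segment, which held 84.9% of the counts (0.88 ± 0.18, edgeR adjusted p = 0.002). Of that segment 84.4% is intron of the canonical transcript, as is 53.4% of the upstream segment of Cct7. The distal segment of Cct8, which overlaps Usp16 on the other strand, gave 0.15 ± 0.17 (edgeR adjusted p = 0.52).

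In mitochondria, Hspd1 (HSP60) rose and its partners did not pass the test. Hspd1 was at 410, 321, 299, 271 and 396 CPM in CTRL and at 369, 521, 554, 428 and 549 CPM with the ASO, a log2 fold change of 0.51 ± 0.17 (n = 5 per group, edgeR adjusted p = 0.036). Only ASO 1 lay within the CTRL range. The call was lost without any one of ASO 2, ASO 3, ASO 5, CTRL 2, CTRL 3 and CTRL 4, when the fold change was 0.44 to 0.50. Hspe1 (HSP10), the lid, was at 238, 182, 164, 155 and 234 CPM in CTRL and at 218, 301, 332, 213 and 227 CPM with the ASO (0.41, 95% interval 0.06 to 0.76, edgeR adjusted p = 0.11). Both genes were thus lower in ASO 1 than in the CTRL library with the highest level. Hspa9 (mortalin), the Hsp70 that pulls proteins through the inner membrane, averaged 513 ± 157 CPM in CTRL and 612 ± 75 CPM with the ASO (0.25, 95% interval −0.12 to 0.63, edgeR adjusted p = 0.34), and without CTRL 1, its highest CTRL library at 778 CPM, it was 0.45 (edgeR adjusted p = 0.042). Dnaja3 (TID1), a mitochondrial J-domain protein, fell. It was at 163, 162, 126, 163 and 206 CPM in CTRL and 107, 121, 39.8, 81.8 and 84.4 CPM with the ASO, with no overlap (−0.92 ± 0.25, edgeR adjusted p = 0.015). All of its counts lie on chr16:4524043-4524542, of which 77.8% is intron of the canonical transcript, and none on its distal segments, which coincide. Of the J-domain subunits of the import motor, Dnajc19 was at 125, 108, 90.4, 98.5 and 103 CPM in CTRL and 158, 115, 193, 121 and 135 CPM with the ASO (0.46 ± 0.16, edgeR adjusted p just under 0.05). This call was lost in 7 of 10 fits that left out 1 library (0.36 to 0.49 without ASO 1, 3 or 5 or without CTRL 2, 3, 4 or 5), and limma-voom did not make it (0.44, adjusted p = 0.056). Dnajc15 averaged 227 ± 49.5 and 301 ± 35.9 CPM (0.41, edgeR adjusted p = 0.081).

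In the endoplasmic reticulum, where chaperones fold secreted and membrane proteins, 3 genes of the set fell. Hspa5 (BiP), the Hsp70 of this compartment, was at 586, 532, 667, 543 and 573 CPM in CTRL and at 325, 311, 312, 562 and 351 CPM with the ASO (−0.64 ± 0.18, n = 5 per group, edgeR adjusted p = 0.017). ASO 4 alone reached the CTRL range, and without ASO 1 or ASO 3 the adjusted p was 0.051 (−0.58 and −0.56). Dnajc3 (p58IPK), a J-domain partner of BiP that also inhibits the kinase PERK, was at 66.5, 63.9, 68.7, 66.1 and 64.6 CPM in CTRL and at 22.7, 40.8, 18.6, 48.4 and 25 CPM with the ASO (−1.08 ± 0.23, edgeR adjusted p = 0.005). Its groups did not overlap, and it has a single segment, in the 3′UTR. Hspa13 (STCH), a small Hsp70 relative with an ATPase domain, was at 31.1, 36.4, 40.5, 38.4 and 37.1 CPM in CTRL and at 25.1, 27.2, 21.1, 28.8 and 17 CPM with the ASO (−0.62 ± 0.17, edgeR adjusted p = 0.016), also without overlap. Read by segment, Hspa5 had −0.26 ± 0.20 (edgeR adjusted p = 0.32) on the 3′UTR segment that held 83.4% of its counts and −2.81 ± 0.27 (edgeR adjusted p = 3e-05) on an intron segment 4240 bp from the annotated end. Hspa13 had 0.34 ± 0.20 (edgeR adjusted p = 0.19) and −2.50 ± 0.37 (edgeR adjusted p = 0.00025). The fall of Hspa5 and Hspa13 in the gene sums thus rested on upstream counts. Hsp90b1 (GRP94), the Hsp90 of the reticulum, averaged 181 ± 22.9 CPM in CTRL and 239 ± 52.8 CPM with the ASO (0.40, 95% interval 0.07 to 0.72, edgeR adjusted p = 0.087), and without ASO 1 it was 0.50 (edgeR adjusted p = 0.047). The J-domain proteins Dnajb11 (ERdj3) and Dnajb9 (ERdj4) had −0.54 and −0.31 (edgeR adjusted p = 0.062 and 0.36).

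The cytosolic Hsp70 genes that stress induces differed more between libraries than between groups. Hspa1a was at 55.2, 33.6, 31.6, 61.4 and 220 CPM in CTRL and at 25.1, 126, 107, 207 and 183 CPM with the ASO (log2 fold change 0.70, 95% interval −0.44 to 1.83, edgeR adjusted p = 0.39). Hspa1b was at 60.4, 27.5, 24.7, 68.4 and 317 CPM in CTRL and at 35.7, 173, 139, 213 and 189 CPM with the ASO (0.60, 95% interval −0.68 to 1.87, edgeR adjusted p = 0.52). For both, CTRL 5 was the highest of all 10 libraries and ASO 1 lay below or among the other CTRL libraries, and their neighbour Hspa1l had its lowest ASO level in ASO 1 (32.4 CPM) and its highest CTRL level in CTRL 5 (94.4 CPM). Without CTRL 5 both would pass the test, with 1.51 for Hspa1a (edgeR adjusted p = 0.04) and 1.73 for Hspa1b (edgeR adjusted p = 0.023). The 2 genes encode nearly the same protein. The counting settings that the study prints hold no option for reads that map to several places. By default such reads are left out, so reads that fit both genes may be missing. Hsph1 (HSP105), which exchanges the nucleotide of Hsp70, averaged 153 ± 53.4 CPM in CTRL and 212 ± 79.7 CPM with the ASO (0.47, 95% interval −0.06 to 0.99, edgeR adjusted p = 0.21), with its highest CTRL level, 242 CPM, again in CTRL 5. The most distal tested segment of Hsph1 alone was higher (0.89 ± 0.28, edgeR adjusted p = 0.02). Hspa4, a relative of Hsph1, had 0.14 (edgeR adjusted p = 0.47).

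None of the 3 Hsp90 genes passed edgeR's test as a gene sum, but the segments of Hsp90ab1 moved apart. DESeq2 called Hsp90aa1 (0.70, adjusted p = 0.036) and Hsp90b1 (0.44, adjusted p = 0.043) higher, and so did edgeR with upper quartile scaling (0.75 and 0.49, adjusted p = 0.037 and 0.045). Hsp90ab1, the constitutive cytosolic form, was at 2201, 2243, 2107, 2294 and 3569 CPM in CTRL and at 2635, 3497, 2720, 2276 and 3246 CPM with the ASO (0.21, 95% interval −0.15 to 0.58, edgeR adjusted p = 0.42), and CTRL 5 was again the highest. Its 3′UTR segment (chr17:45878701-45878940 on GRCm39) was at 1148, 1230, 938, 962 and 1337 CPM in CTRL and at 2012, 2751, 2467, 1933 and 2753 CPM with the ASO, with no overlap (1.13 ± 0.17, edgeR adjusted p = 0.00028). The segment 2888 bp upstream (chr17:45881589-45882081), mostly coding, was at 1053, 1012, 1170, 1331 and 2232 CPM in CTRL and at 623, 746, 253, 342 and 494 CPM with the ASO, also with no overlap and in the other direction (−1.44 ± 0.30, edgeR adjusted p = 0.0022). Hsp90aa1, the inducible form, was at 51.4, 47.1, 81, 61.4 and 118 CPM in CTRL and at 70, 128, 118, 123 and 124 CPM with the ASO (0.65, 95% interval 0.16 to 1.15, edgeR adjusted p = 0.069). It passed without ASO 1 (0.81, edgeR adjusted p = 0.028) and without CTRL 5 (0.90, edgeR adjusted p = 0.013). The 3′UTR segment with 98.3% of its counts, fitted on its own, was higher (0.72 ± 0.26, edgeR adjusted p = 0.041).

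Of the genes of the set with counts, 4 of the 5 measured small heat shock proteins were, with Hsp90ab1, those with the highest level per kilobase of unique segment. The mean over all libraries was 9848 CPM per kilobase for Hspb6 (HSP20), 4810 for Hspb8 (HSP22), 3655 for Hsp90ab1, 2985 for Hspb1 (HSP27) and 2751 for Hspb7, the cardiovascular small heat shock protein, and Hspb3 was at 454. In CTRL alone Hspb7 (2514) came before Hspb1 (2342), and Hspa8 and Dnajb1 could not be ranked. Hspb8, the partner of BAG3 in autophagy of damaged filamin, rose. It was at 1728, 2298, 1288, 1425 and 2050 CPM in CTRL and at 3401, 2965, 3460, 2284 and 3154 CPM with the ASO (0.80 ± 0.19, n = 5 per group, edgeR adjusted p = 0.0084), and only ASO 4 fell within the CTRL range. Hspb1 was at 793, 560, 583, 831 and 933 CPM in CTRL and at 675, 1282, 1625, 1111 and 1036 CPM with the ASO (0.63, 95% interval 0.19 to 1.08, edgeR adjusted p = 0.054), and without ASO 1 it was 0.79 (edgeR adjusted p = 0.012). Hspb1 was called higher by DESeq2 (0.67, adjusted p = 0.016) and by edgeR with RLE (0.66, adjusted p = 0.039) or upper quartile scaling (0.72, adjusted p = 0.029), and in the fit of single segments (0.68, adjusted p = 0.035). Hspb3, a muscle form, averaged 51.8 ± 8.76 and 68 ± 9.76 CPM (0.39, edgeR adjusted p = 0.08, 0.49 with an adjusted p of 0.04 without ASO 1, and 0.48 with an adjusted p of 0.037 with upper quartile scaling). For these 3 genes all or all but 1 of the ASO libraries lay above the CTRL median. Hspb6 was at 5712, 3514, 3811, 6815 and 4277 CPM in CTRL and at 2777, 4238, 8956, 6159 and 2689 CPM with the ASO (0.04, 95% interval −0.61 to 0.69, edgeR adjusted p = 0.94). Hspb7 was at 2052, 765, 734, 1798 and 935 CPM in CTRL and at 251, 586, 2509, 3387 and 738 CPM with the ASO (0.25, 95% interval −0.92 to 1.42, edgeR adjusted p = 0.78). The range of both was wider within the ASO group than within CTRL, and the groups overlapped. Bag3, the cochaperone of Hspb8, was at 856, 532, 371, 473 and 526 CPM in CTRL and 354, 498, 594, 770 and 573 CPM with the ASO (0.02, 95% interval −0.45 to 0.49, edgeR adjusted p = 0.97). Hspb2 had 0 counts and no base of its own, and so had Cryab (αB-crystallin), a small heat shock protein outside the 89 symbols.

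**Figure D3:**
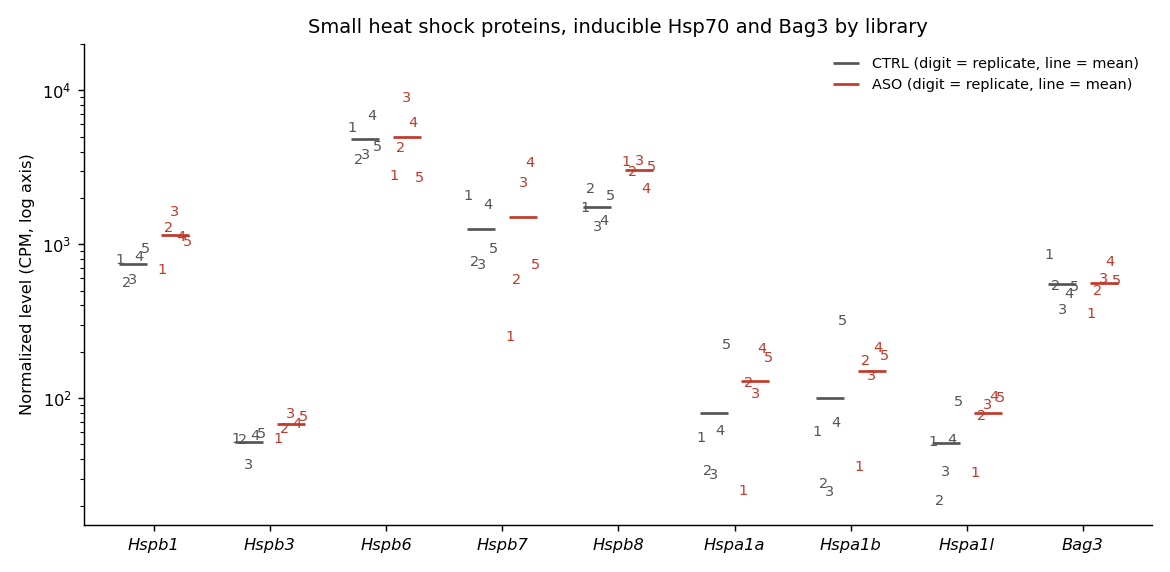
Normalized level (CPM, log axis) of 5 small heat shock proteins, the Hspa1 genes and Bag3 in each library, with digits for the replicate and a line for the group mean (grey CTRL, red ASO). Hspb7 spans 251 to 3387 CPM within the ASO group, and CTRL 5 stands above the other CTRL libraries for Hspa1a (220 CPM) and Hspa1b (317 CPM).

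The spread of Hspb7 went with that of slow fiber genes, a relation looked for after its levels had been seen. The mean log2(CPM + 1) of 8 genes of slow fibers (Myh7, Myl2, Myl3, Tnnt1, Tnni1, Tnnc1, Tpm3 and Atp2a2) was 1.45, 1.43, 5.93, 7.84 and 4.70 in ASO 1 to 5 and 6.52, 4.41, 4.28, 5.33 and 2.26 in CTRL 1 to 5. Over the 10 libraries Hspb7 had a Pearson r of 0.876 with it (permutation p = 0.0011) and a Spearman rho of 0.891 (permutation p = 0.001), and r was 0.844 without the 2 libraries farthest from the median (ASO 2 and ASO 4). After Benjamini-Hochberg adjustment over the 66 genes correlated in this way, the values were 0.075 and 0.069, and none of the 66 passed by either measure. The next strongest r were negative, −0.8 for Dnajc4 (permutation p = 0.0058, adjusted 0.19) and −0.734 for Dnajb12 (permutation p = 0.011, adjusted 0.25). Bag3 had an r of 0.71 (permutation p = 0.021, adjusted 0.3) and a rho of 0.77 (permutation p = 0.012, adjusted 0.24), with r at 0.691 without ASO 2 and ASO 4. For Hspb6 r was 0.602 (permutation p = 0.067, adjusted 0.49) and rho 0.576 (permutation p = 0.088, adjusted 0.58), and for Hspb8 r was −0.281 (permutation p = 0.43, adjusted 0.97). The relation was not tested within the groups, which hold 5 libraries each.

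**Figure D4:**
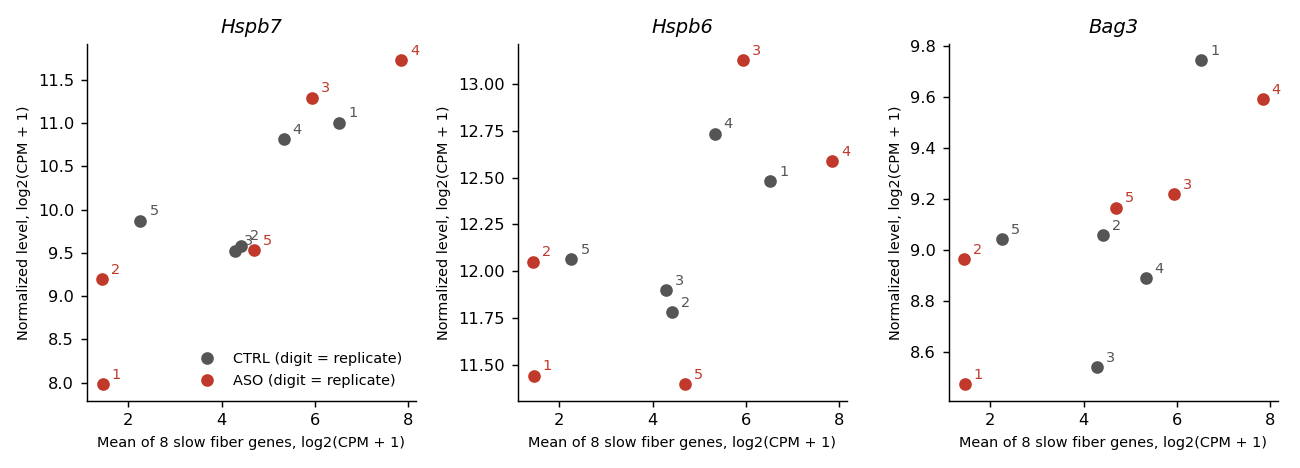
Level of Hspb7, Hspb6 and Bag3 against the mean level of 8 slow fiber genes, both as log2(CPM + 1), 1 point per library with its replicate number (grey CTRL, red ASO). ASO 1 is low on both axes in each panel and ASO 4 high, and points of both groups lie along the same rise for Hspb7 (r = 0.876).

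Among the BAG proteins, Bag2 was lower with the ASO. This inhibitor of the ubiquitin ligase CHIP was at 101, 77.4, 67.2, 109 and 80.9 CPM in CTRL and at 36.2, 37.8, 14.8, 46.8 and 26.9 CPM with the ASO (−1.42 ± 0.26, n = 5 per group, edgeR adjusted p = 0.002), and the groups did not overlap. It was lower both on its 3′UTR segment (−0.91 ± 0.28, edgeR adjusted p = 0.022) and on the coding segment 1318 bp upstream (−2.57 ± 0.28, edgeR adjusted p = 5e-05). Bag4 and Bag5 had −0.04 (95% interval −0.79 to 0.71) and 0.09 (95% interval −0.23 to 0.40), with edgeR adjusted p of 0.95 and 0.71. CHIP itself (Stub1) was under the filter on low counts, with at most 4.24 CPM in any library.

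The J-domain proteins, 45 of the 89 genes, were the largest group and moved in both directions. Among 3 tested of class A, Dnaja3 fell as described, while Dnaja2, a general cytosolic cochaperone, averaged 88.9 ± 15.4 CPM in CTRL and 120 ± 19.6 CPM with the ASO (0.43, edgeR adjusted p = 0.064, and 0.55 with an adjusted p of 0.018 without ASO 4). DESeq2 called Dnaja2 higher (0.48, adjusted p = 0.035), and so did edgeR with RLE (0.47, adjusted p = 0.045) and upper quartile scaling (0.52, adjusted p = 0.03). Dnaja4 had 0.25 (edgeR adjusted p = 0.51), and Dnaja1, at up to 5.62 CPM, was under the filter. Among 8 tested of class B, 1 fell and 1 rose. Dnajb4 (HLJ1), a cytosolic partner of Hsp70, had the smallest adjusted p of the set. It was at 188, 145, 107, 163 and 178 CPM in CTRL and at 50.2, 60.3, 42.3, 76.4 and 50.9 CPM with the ASO, without overlap (−1.48 ± 0.19, edgeR adjusted p = 0.00033). Like Bag2 it was lower on the segment at the end of its 3′UTR (−0.88 ± 0.23, edgeR adjusted p = 0.0082) and more so on the 66 bp segment 1126 bp from the end (−1.64 ± 0.20, edgeR adjusted p = 7.4e-05). Dnajb5, which works with Hsp70 in muscle and binds class II histone deacetylases, was at 639, 564, 414, 617 and 538 CPM in CTRL and at 662, 651, 915, 739 and 926 CPM with the ASO (0.49 ± 0.16, edgeR adjusted p = 0.039). Every ASO library was above every CTRL library, but the call was lost without ASO 3 or 5 or without CTRL 2, 3, 4 or 5 (0.40 to 0.53, edgeR adjusted p = 0.057 to 0.083). Dnajb6, which keeps sarcomeric proteins from aggregating, was at 53.3, 53.2, 48.9, 59 and 56.7 CPM in CTRL and 35.7, 46.7, 41.9, 43.4 and 48.6 CPM with the ASO (−0.32, 95% interval −0.57 to −0.07, edgeR adjusted p = 0.074, and −0.50 with an adjusted p of 0.011 on total counts), and its most distal tested segment alone was higher (0.91 ± 0.34, edgeR adjusted p = 0.044). Dnajb2 had −0.26 (95% interval −0.75 to 0.22, edgeR adjusted p = 0.44).

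Of 21 tested class C proteins, 2 rose and 3 fell. Dnajc2 (MPP11), which docks Hsp70 at the ribosome, had the largest rise of the set, from 22.2, 22.8, 14.3, 17.1 and 16.3 CPM in CTRL to 48.3, 28.9, 60.5, 30.5 and 66 CPM with the ASO, without overlap (1.33 ± 0.26, edgeR adjusted p = 0.0028). Of its counts 99.9% lie on chr5:21962270-21962693, of which 67.5% is intron of the canonical transcript. Dnajc19 was the other that rose, and Dnajc3 is given above among those that fell. Dnajc5 (cysteine string protein), which guards SNARE proteins on secretory vesicles, averaged 57.2 ± 13.3 CPM in CTRL and 37 ± 4.9 CPM with the ASO (−0.62 ± 0.18, edgeR adjusted p = 0.02), with ASO 1, 2 and 3 above the lowest CTRL library. It lost its call without ASO 5, CTRL 4 or CTRL 5 (−0.53 to −0.57, edgeR adjusted p = 0.053). Its most distal segment was higher (0.59 ± 0.21, edgeR adjusted p = 0.044) and the segment 5543 bp upstream lower (−1.23 ± 0.24, edgeR adjusted p = 0.0015). Dnajc14 averaged 29 ± 5.23 and 20.5 ± 2.61 CPM (−0.50 ± 0.17, edgeR adjusted p = 0.046), and was called in 2 of 10 fits that left out 1 library (−0.40 to −0.54 in the 8 that lost it, without any of ASO 1 to 5, CTRL 2, CTRL 3 or CTRL 4). Its distal segment, which overlaps Ormdl2, held 1.95% of the counts. The fall rested on a 92 bp segment 1943 bp upstream, with 95.1% of the counts (−0.48 ± 0.18, edgeR adjusted p = 0.046). Dnajc14 did not pass with DESeq2 (−0.46, adjusted p = 0.1), nor in edgeR with RLE (−0.47, adjusted p = 0.063) or upper quartile scaling (−0.41, adjusted p = 0.087) or without a filter (−0.47, adjusted p = 0.12). The other 16 lay between −0.45 (Dnajc1) and 0.46 (Dnajc9, Dnajc10 and Dnajc17) without passing the test.

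Across the set, position within the gene told segments apart. Of the 24 genes with at least 2 tested segments, the log2 fold change of the most distal one was above that of the most upstream one in 22, as it was in 88.9% of the 2272 such genes of the whole table. The median difference was 1.35 in the set and 1.11 over all those genes. The most distal segments of the 24 were higher in 7 and lower in 2 (24.6% and 10.2% of all such genes), and the most upstream ones were higher in 3 and lower in 13 (3.43% and 59.2% of all such genes). The widest gap was that of Dnajc13, an endosomal J-domain protein, from 0.84 ± 0.21 at the end of the 3′UTR to −2.78 ± 0.45 at an intron segment 37786 bp upstream (edgeR adjusted p = 0.0073 and 0.00043). The 2 exceptions were Cct8 and Dnajc7. Among the 27 tested genes with 1 annotated segment, where no segments can be compared, 3 were higher and 1 lower (20.6% and 4.55% of all such genes). The difference in coverage between the groups can still enter the level of such a gene, and its part was not tested. Of the 39 with several annotated segments, 5 were higher and 9 lower (7.44% and 23.8% of all such genes). When each of the 66 genes was read by its most distal tested segment, 16 were higher and 6 lower, against 21.0% and 11.5% of all genes. Bag2 and Dnajb4 were lower on every tested segment and Cct7 was higher on every tested segment.

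**Figure D5:**
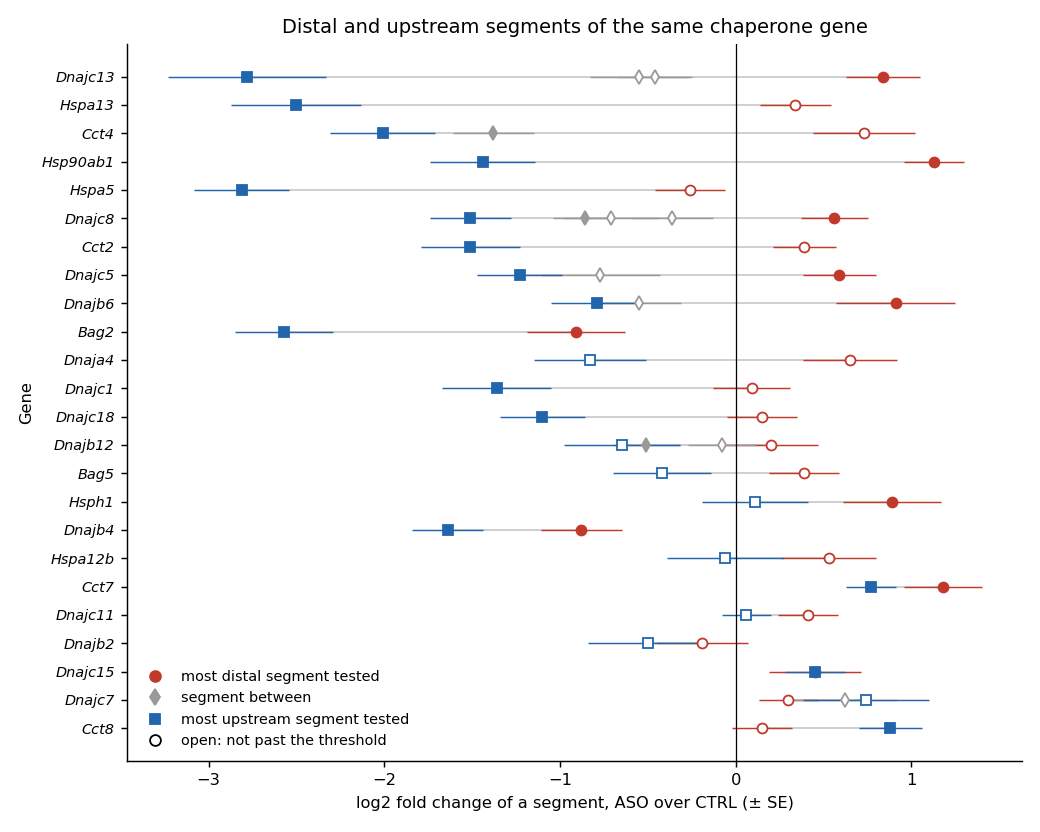
Log2 fold change (ASO over CTRL) with its SE for each tested segment of the 24 chaperone genes with at least 2, on 1 line per gene, sorted by the gap between the most distal (red circle) and the most upstream segment (blue square). Filled symbols passed an adjusted p of 0.05, and the red circle lies to the right of the blue square in 22 of the 24 lines, with the exceptions at the bottom (Cct8 and Dnajc7).

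Regulators and partners outside the 89 symbols were described from a list of 61 genes, of which 43 were tested, 12 rose and 6 fell. These are 27.9% and 14.0% of the 43, against 11.8% and 17.4% of all genes, and the median log2 fold change was 0.18. Hsf1, the master regulator, was at 2.33 to 7.91 CPM in CTRL and 2.92 to 8.69 CPM with the ASO (−0.02, edgeR adjusted p = 0.97, above 0 with RLE and upper quartile scaling). Of the cochaperones that act with Hsp90, Stip1 (HOP, 0.58), Fkbp4 (0.52), Ptges3 (p23, 0.46) and Nudc (0.57) rose, while Fkbp5 fell (−1.09), with edgeR adjusted p between 0.0051 and 0.033. Others that act with Hsp90 did not pass, with edgeR adjusted p between 0.11 and 0.88. They were Ahsa1 (0.23), Unc45a (0.24), Sugt1 (−0.07), Ppid (−0.10), Chordc1 (−0.25) and Cdc37l1 (−0.39). Nudc was at 96.7, 101, 91.4, 82.6 and 87.6 CPM in CTRL and at 123, 125, 140, 132 and 164 CPM with the ASO, without overlap. Prefoldin, which hands actin to CCT, had Pfdn1 (0.59) and Pfdn5 (0.65, but −0.93 on its most distal tested segment) higher and Vbp1 (−0.46) lower, and Pdcl3, a CCT cochaperone, was lower (−0.99, and −0.56 with an edgeR adjusted p of 0.18 on its most distal tested segment), with edgeR adjusted p between 0.0032 and 0.035. Of the mitochondrial proteases, Clpp and Lonp1 rose, with Clpp at 0.80 ± 0.19 (edgeR adjusted p = 0.0081) and Lonp1 at 0.61 ± 0.15 (edgeR adjusted p = 0.009). In the reticulum, Hyou1, which exchanges the nucleotide of BiP (−1.26 ± 0.23, edgeR adjusted p = 0.0019), the disulfide isomerase Pdia3 (−1.20 ± 0.24, edgeR adjusted p = 0.0034) and the transcription factor Xbp1 (−0.83 ± 0.17, edgeR adjusted p = 0.0035) fell, and all 3 were without overlap. Xbp1 on its most distal tested segment had −0.27 (edgeR adjusted p = 0.18). Calreticulin (Calr, 0.68 ± 0.16, edgeR adjusted p = 0.0086) rose. The reticulum genes Canx (0.53), Creld2 (0.18), P4hb (0.09), Manf (−0.00), Pdia4 (−0.11) and Sdf2l1 (−0.38) did not pass. Neither did the stress regulators Atf6 (0.26) and Ddit3 (0.26). Atf4, the transcription factor of the integrated stress response, was at 137, 119, 98.3, 119 and 101 CPM in CTRL and at 199, 196, 380, 227 and 270 CPM with the ASO (1.15 ± 0.19, edgeR adjusted p = 0.0013). Vcp, an ATPase that extracts ubiquitylated proteins, rose by 0.45 (edgeR adjusted p = 0.026). Unc45b, the myosin chaperone, is among the 8 genes of the list with 0 counts, and it has no base of its own.

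Matches to the miR-22 seed, shown at the start for the called genes, were held by genes that rose and by genes that fell. The 13 tested genes with a match are 20% of the 65 with a 3′UTR, against 17.9% of the 7768 tested genes with one. Of the 13, 1 rose (Dnajb5) and 3 fell (Dnaja3, Dnajc3 and Dnajc5), and their median log2 fold change was 0.04. Of the genes without a match, 7 rose and 7 fell, and their median was 0.24. The site in Dnajb5 lies within the segment on which all its counts were made (chr4:42958224-42958723). For Dnaja3 all counts lie upstream of the site, and the coinciding distal segments over the site had none. In Dnajc5 the segment that fell (−1.23) lies upstream of the site. Of the tested segments beyond the site, the most distal was higher (0.59). The one 2884 bp upstream of that end had −0.77 ± 0.34 (edgeR adjusted p = 0.084). The counted segment of Dnajc3 lies downstream of its site, at the end of the 3′UTR. Hspb6, the gene with the highest level per kilobase, also has a match and a fold change of 0.04. Its only segment (chr7:30254369-30254868) lies upstream of the match (chr7:30255357-30255386). The counts therefore do not show whether the counted transcripts hold the site. Full heat shock elements, also shown at the start, were held by 4 genes with fold changes of 0.51 (Hspd1, which rose), 0.41 (Hspe1), 0.47 (Hsph1) and −0.32 (Dnajb6). Neither kind of match shows that a site is used.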

How the data were processed

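The authors deposited unnormalized counts of read pairs from a stranded poly(A) kit. They used fastp, STAR on GRCm39 and featureCounts with the Gencode M25 annotation, and kept 500 bp or less at the end of each 3′UTR. The featureCounts settings that the study prints hold no strand option, and by default the tool ignores strand, so counts of genes with an antisense neighbour are uncertain. Segment identifiers were matched to GENCODE M39 (52361 of 52423, and the other 62 hold 0.0197% of the counts), and 4 other per-sample columns were not used. Totals of 1606909 to 2632560 counts limit precision.

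Gene sums were fitted with edgeR 4.0.16 (TMM, filterByExpr by group, quasi-likelihood test, Benjamini-Hochberg over 7813 genes, threshold 0.05) in R 4.3.3. Intervals at 95% come from the fold change and its SE. Each segment was also fitted on its own. Alternatives were DESeq2 1.42.0, which the authors used, limma-voom (limma 3.58.1), other scalings and filters, a replicate block, distal segments only, equal depth and leaving out each library. The procedure was tested on simulated data. Correlations used 100000 resamples in Python 3.11.15.

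The genes and lists were chosen with earlier results of these data known. Named are genes past the threshold, principal chaperones whatever their result, Hsf1, Tcp1, Cryab, Unc45b, Stub1 and up to 8 called partners, and others were named after their values were seen. Adipocyte, endothelial, Schwann cell and blood markers held no called gene.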

Additional observations from a re-analysis of the deposited data

Results flagged for a closer look

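In 98 groups of 5 libraries (2 groups for each of 49 named genes), 7 had a highest or lowest library that stood apart from the rest by Dixon's test, and chance gives about 1 in 20. CTRL 5 was the high one for Hsp90ab1 (3569 CPM, next 2294), Hspa1a (220 CPM, next 61.4) and Hspa1b (317 CPM, next 68.4). CTRL 3 was low for Hspb3 (36.6 CPM, next 53.2). Among the ASO libraries, ASO 4 was high for Hspa5 (562 CPM, next 351) and Bag5 (31.7 CPM, next 24.5), and ASO 1 was low for Hsp90aa1 (70 CPM, next 118). CTRL 5 also had the lowest ratio of distal to upstream coverage of all libraries (−0.59). The part of that coverage in these levels was not tested.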

How the results depend on the processing

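For genes of the set, DESeq2 gave 13 higher, total counts 5 higher and 16 lower, upper quartile scaling 15 higher, the most distal annotated segment alone 2 higher and 2 lower of 46 tested, and the most distal tested segment, added after seeing the data, 16 higher and 6 lower. For all genes, total counts gave 528 higher, the most distal annotated segment 229 higher and 335 lower of 5065, and the most distal tested segment 1581 higher and 871 lower. In the fit on distal segments alone the scaling is set by those segments, and Cct6a, which has 1 segment, went from 0.24 to −0.05. Leaving out 1 library gave 5 to 11 higher and 8 to 11 lower in the set, and 692 to 1021 higher and 1127 to 1369 lower over all genes. Of 1009 fits of 49 named genes under these settings, 862 kept direction and side of the threshold, 65 lost the call, 30 gained one and 52 changed direction.

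Directions that changed were those of Cct2 (0.06 with the most distal annotated segment, 0.39 with the most distal tested one), Cct4 (0.41 and 0.73), Dnajc5 (0.25 and 0.59) and Pfdn5 (−1.24 and −0.93), of Hspa13 (0.34) and Dnajb6 (0.91) with the most distal tested segment, and of Cct8 (−0.19) and Hspa9 (−0.02) with the most distal annotated one. Near 0, Bag3 turned with total counts (−0.15), at least 10 counts in every library (−0.01) and the most distal segment (−0.27), Bag5 with total counts (−0.09), Bag4 with upper quartile scaling (0.04), the block (0.02) and the most distal tested segment (0.01), Hspb6 with limma-voom (−0.08), total counts (−0.13), the block (−0.08) and the most distal segment (−0.27), Hspb7 with limma-voom (−0.22), the block (−0.13) and the most distal segment (−0.06), and Hsf1 with DESeq2 (0.03), RLE (0.01), upper quartile scaling (0.07), no filter (0.02) and equal depth (0.25). Without 1 library, these ranged over −0.11 to 0.23 (Bag3), −0.22 to 0.25 (Bag4), −0.25 to 0.21 (Hspb6), −0.29 to 0.53 (Hspb7) and −0.22 to 0.16 (Hsf1). The causes were not tested beyond what the settings' construction shows.

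The deviations of same-numbered libraries correlated at −0.428, 0.0577, 0.0519, 0.0601 and 0.164. These values were not set against a reference distribution, so they neither show nor exclude a pairing by replicate number. With the replicate numbers as a block 6 genes of the set were higher and 8 lower, and 662 and 1172 of all genes. Depth limits the lowest genes, such as Hspa14 and Dnajc17 at under 10 CPM.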

Other observations

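Of the 12 genes of the set that were under the filter on low counts, several J-domain genes with few counts had most of them in 1 control library. Dnajb3 had 24.2 CPM in CTRL 5 and at most 2.36 CPM elsewhere, Dnajc5g 7.86 CPM in CTRL 5 and at most 0.59 CPM elsewhere, Dnajb8 6.18 CPM in CTRL 5 and at most 1.18 CPM elsewhere, and Dnajb7 4.49 CPM in CTRL 5 and at most 0.59 CPM elsewhere. These are known as genes of the testis and sperm, and with 8 to 43 counts in that library they are given as values only. Dnajb13, a gene of cilia and flagella, was at 0, 2.33, 16.3, 7.08 and 8.43 CPM in CTRL and at 2.9, 1.27, 2.54, 0.417 and 0 CPM with the ASO.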
